A study of Mus musculus with 14 samples.

Results

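The replication-dependent histone genes are the clustered genes that supply histone proteins during DNA synthesis, and their RNA was examined here in mouse embryonic stem cells. Members were the genes of both count tables whose Ensembl ID maps to a symbol of the Hist1, Hist2 or Hist3 cluster, or to the newer name of such a gene. There were 57 members among 37991 genes: 6 H1 genes, 18 H2A, 14 H2B, 7 H3 and 12 H4. The Hist1 cluster on chromosome 13 held 45 of them, the Hist2 cluster on chromosome 3 held 9 and the Hist3 cluster on chromosome 11 held 3. Another 13 annotated genes of this kind were not analysed here. The annotation lists 54 of the 57 as protein-coding and 3 as pseudogenes.

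All cells carried the J1 129S4/SvJae background, and each of the 7 groups had 2 libraries of polyadenylated RNA. In experiment 1, wild-type cells and Dnmt-TKO cells, which lack the DNA methyltransferases, received either DMSO, the vehicle, or PRT4165, which inhibits PRC1, the Polycomb complex that monoubiquitinates histone H2A. In experiment 2, wild-type, Dnmt-TKO and Tet1-KO Dnmt-TKO cells were untreated, and the last of these also lack the dioxygenase TET1. The labels give no clone, passage, dose or duration. Genotype and the history of each cell line cannot be told apart, and the labels do not say whether the 2 libraries of a group are different cultures. The p-values therefore reflect the spread between libraries, which may be technical.

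In an ordinary messenger RNA the end is cut and given a poly(A) tail. A replication-dependent histone pre-mRNA is instead cut just after a short hairpin, the stem-loop, which is bound by SLBP, and the U7 snRNP guides that cut. The mature message has no tail, is made in S phase through the coactivator NPAT and is destroyed when DNA synthesis stops. Selection for poly(A) therefore retains the tailed minority of these messages, such as transcripts that run past the hairpin to a downstream poly(A) site, along with any untailed RNA that carries over. A level given here is the level in the selected RNA and not the level of histone message in the cell.

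Because this hairpin sets the genes apart in poly(A)-selected RNA, its forms are shown 5′ to 3′ with the loop in capitals. The transcripts of GENCODE vM21 were searched on the transcript's own strand for the 16 letters of the histone stem-loop, with a pattern widened after a narrower first search, and 37 of the 57 members held them. Of all 55450 annotated genes, 89 did (0.161%), and 45 of the 89 were not genes of this kind. The DNA letters of the 6 forms, with the number of members, were as follows.
Form of 21 members of types H1, H2A, H2B and H3: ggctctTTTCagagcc
Form of 6 members, all H4: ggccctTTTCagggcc
Form of 5 members, among them Hist1h3c and Hist1h3e: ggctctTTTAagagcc
Form of Hist1h4i and Hist2h4: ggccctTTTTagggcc
Form of Hist1h4b and Hist1h4j: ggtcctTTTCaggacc
Form of Hist2h2ac: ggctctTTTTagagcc
In each form the 6 bases before the loop of 4 pair with the 6 after it. The 3 forms found in H4 genes alone differ in the stem from that of the 21 members. A member without these letters may have an annotated transcript that stops short of the hairpin.

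Members were split by their annotated transcript, a split chosen after values had been seen. The 22 extended members had at least 100 bases of annotated transcript after the stem-loop, or more than 1 exon. Another 18 ended within 100 bases of the stem-loop and 17 had no stem-loop letters. Hist1h1c, for example, runs 840 bases past its stem-loop, Hist1h4i 330, Hist3h2ba 169 and Hist1h2ae 151. Hist1h2bc, an H2B gene annotated with 2 exons, held no stem-loop letters and was extended by its splicing.

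The libraries held 23354015 to 41844823 counts. The targeted genes followed the labels. Dnmt1 was at 305 to 434 CPM in the 6 wild-type libraries and 116 to 158 in the 8 others, Dnmt3b at 107 to 197 against 36.4 to 51.3, and Tet1 at 134 and 201 in the Tet1-KO cells against 401 to 791 elsewhere. CPM are counts scaled to a library of 1000000 counts after TMM scaling, and the experiments were scaled separately. The stem cell marker Pou5f1 was at 506 to 1008 CPM in all libraries.

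The members together gave few reads. They took 776 to 1873 counts per library, which is 0.00254% to 0.00569% of all counts and 27.1 to 53.8 summed CPM. H3f3b, a replacement histone gene whose message is polyadenylated, alone reached 550 to 798 CPM. The 5 highest members held 52.4% of the histone counts of all libraries together, and the 10 highest held 66.1%. On average over the 14 libraries, 8 members reached 1 CPM and 2 reached 5 CPM.

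Levels were compared between members per kilobase of annotated exons, with the exons of all transcripts of a gene joined. These lengths are from GENCODE vM21, whereas the annotation used for counting was not given, so the order depends on them. Hist1h1c, which encodes the linker histone H1.2, was highest over the 14 libraries at a mean of 5.25 CPM per kb, ahead of the H2B gene Hist1h2bc at 5.09. Hist1h2ae, an H2A gene, followed at 4.01, the H4 gene Hist1h4i at 3.92 and the H3 gene Hist1h3c at 2.55. The order differed between groups. Hist1h1c led in the Dnmt-TKO vehicle and Tet1-KO Dnmt-TKO groups, at 7.05 ± 0.59 and 9.80 ± 0.91 CPM per kb (SD, n = 2). The leading member was Hist1h3c in wild-type vehicle cells, at 3.56 beside 3.55 for Hist1h1c, and Hist1h2ae in untreated wild-type cells, at 5.16 beside 4.91, differences smaller than the SD of Hist1h1c in each group. Hist1h4i led in untreated Dnmt-TKO cells at 7.56 CPM per kb, Hist1h2bc in Dnmt-TKO cells with the inhibitor at 7.56, and the pseudogene Hist1h2al in wild-type cells with the inhibitor at 3.86. The median over the 57 members was 0.573 CPM per kb. In the Hist2 cluster the highest level was 0.239 CPM per kb, that of the H2B gene Hist2h2be, and in Hist3 it was 1.14, that of Hist3h2ba.

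Several members were absent or nearly so. Hist2h2aa1, Hist2h2aa2, Hist2h3b and Hist2h3c1 were at 0 in all 14 libraries, but 100% of the 50-base words of Hist2h2aa2 and 34.7% of those of Hist2h3c1 occur in other genes, and all 4 overlap other annotated genes of the tables. The testis genes were also near 0. Hist1h2ba was at 0 in 10 libraries and at most 0.0441 CPM in the others. Hist1h2aa was at 0 in all 4 wild-type libraries of experiment 1 and at 0.101 and 0.134 CPM in the Dnmt-TKO vehicle libraries, from 3 and 4 counts. A total of 37 members passed the filter on low counts in experiment 1 and 36 in experiment 2, 34 in both and 18 in neither. The counts of members below are over those tested and not over all 57, and 25 of the 57 share at least 50% of their 50-base words with other genes, so reads of near-identical copies may have been divided or lost in counting.

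**Figure D1:**
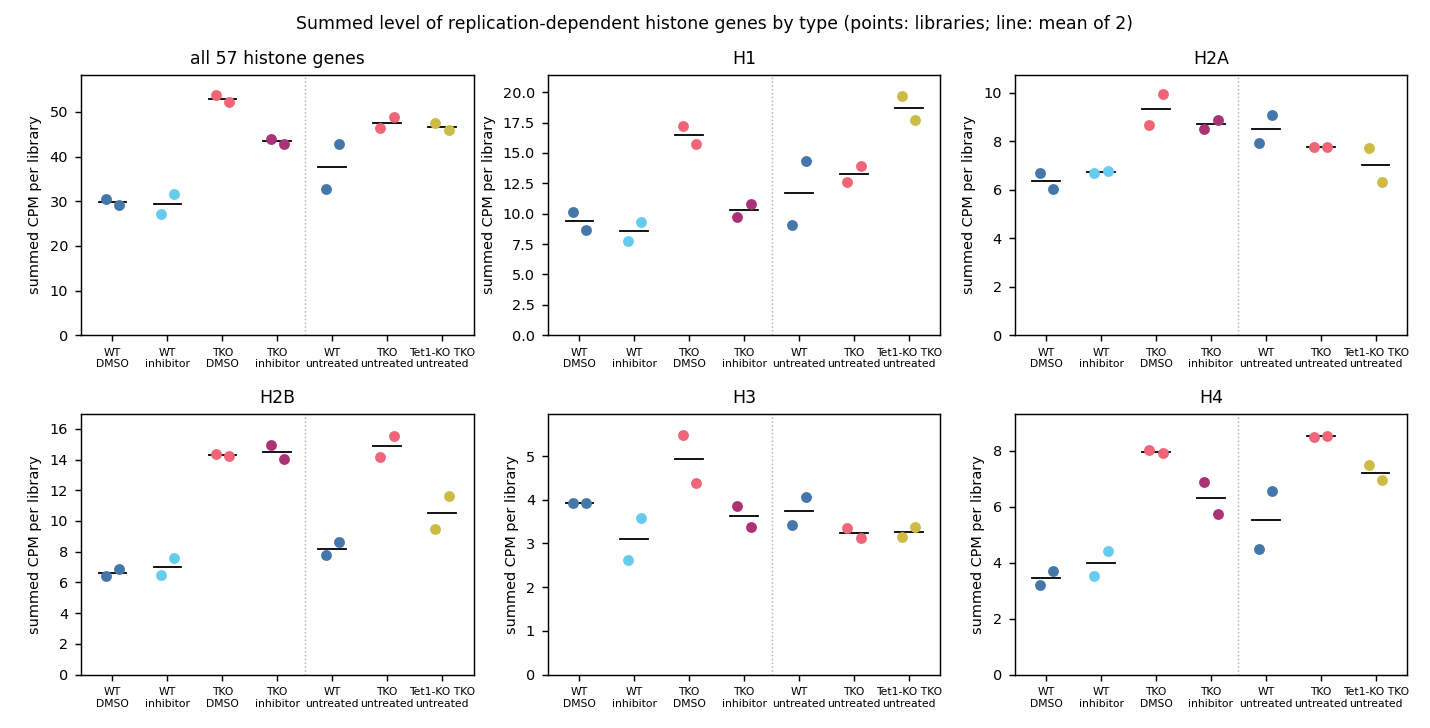
Summed CPM of all 57 members and of each histone type (y axes, from 0) in the 7 groups (x axes), with 1 point per library and a line at the mean of 2; the dotted line parts the separately scaled experiments. H2B and H4 stand higher in both Dnmt-TKO vehicle libraries (14.2 and 14.4 CPM for H2B) than in both wild-type vehicle libraries (6.43 and 6.84).

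Under vehicle, histone RNA in the poly(A)-selected libraries was higher in Dnmt-TKO cells than in wild-type cells. The summed level of the 57 members was 30.4 and 29.1 CPM in wild-type cells and 53.8 and 52.2 CPM in Dnmt-TKO cells, 1.78 times higher by group means. Both Dnmt-TKO libraries were above both wild-type libraries for all 5 histone types. The ratio was 2.30 for H4, 2.15 for H2B, 1.75 for H1, 1.47 for H2A and 1.26 for H3. Single members weighed heavily in these sums. In H4, at 3.215 and 3.7 CPM against 8.011 and 7.901, Hist1h4i alone went from 1.04 and 1.28 to 4.54 and 4.79. In H2B, Hist1h2bc went from 3.04 and 2.71 to 8.415 and 7.533 CPM. By type, the median log2 change of tested members was 0.45 in H4 and H2B, 0.93 in H1, 0.30 in H2A and 0.68 in H3. Gene by gene, 15 of the 37 members tested rose and 0 fell, at an adjusted p under 0.05 in edgeR's quasi-likelihood test with Benjamini-Hochberg adjustment over all 16711 genes. Of all genes, 34.8% rose and 34.2% fell. In 17 members both Dnmt-TKO libraries were above both wild-type libraries and in 3 both were below, as in 42.5% and 40.8% of all genes. The share of members that rose, 40.5%, was near the background, while none of the 37 was among the genes that fell. Some members that rose passed the filter only through the genotype where they were high. In experiment 1, Hist1h1t, Hist1h4h, Hist2h3c2, Hist3h2a and Hist3h2ba reached 10 counts only in Dnmt-TKO libraries. Hist1h2be had 3, 8, 9 and 13 counts in wild-type libraries and 19 to 39 in Dnmt-TKO. Hist1h4k had 4, 2, 10 and 4 against 11 to 17. The filter needs 2 libraries at its cutoff, so Hist1h2be and Hist1h4k also passed through Dnmt-TKO libraries. The filter favours calling such members higher, so the counts of members that rose and fell are in part set by it. Among members below 0, none had an unadjusted p under 0.05, and DESeq2 called 12 higher and 0 lower. The median log2 change was 0.45 over the 37 members and 0.01 over all genes. Without Dnmt-TKO vehicle replicate 1, 2 members passed as lower, Hist1h4d at -1.32 and Hist1h3c at -0.85 on the log2 scale.

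The members that rose were mostly extended members, with annotated transcript past the stem-loop or more than 1 exon. Of the 17 extended members tested, 11 rose, with a median log2 change of 1.10. Of the 10 members that end near the stem-loop, 2 rose, and the median was 0.28. Of the 10 without stem-loop letters, 2 rose, with a median of 0.17. In summed level the extended members were at 17.4 and 16.6 CPM in wild-type cells and 38.0 and 36.7 CPM in Dnmt-TKO cells. The members that end near the stem-loop were at 6.18 and 6.84 against 8.21 and 7.17 CPM. The extended members also had more counts (a median of 230.5 over all libraries, against 105.5 for those that end near the stem-loop), and the part of this difference in the calls was not tested.

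By histone type, 4 of 6 H1 genes rose, 2 of 10 H2A, 3 of 9 H2B, 3 of 5 H3 and 3 of 7 H4. Linker histone H1 binds the DNA where it enters and leaves the nucleosome. Hist1h1c was at 6.001 and 5.068 CPM in wild-type vehicle libraries and at 11.65 and 10.35 in Dnmt-TKO. Both Dnmt-TKO libraries were higher, by 1.00 ± 0.13 on the log2 scale (SE, adjusted p = 3.6e-07 in edgeR's quasi-likelihood test). The testis linker gene Hist1h1t was at 0.0714 and 0.124 CPM against 0.438 and 0.435, a log2 change of 2.09 ± 0.61 (SE, adjusted p = 0.0041, edgeR). Hist1h1t thus rose from a few counts per library, without overlap. In experiment 1 it reached 10 counts only in the Dnmt-TKO vehicle libraries, with 13 and 13. It therefore passed the filter through the group where it was high, which favours both a rise by genotype and a fall with the inhibitor. Hist1h1a, at 1.75 and 1.37 against 1.78 and 1.57 CPM, and Hist1h1d, at 1.22 and 1.03 against 1.35 and 1.11, did not pass the test.

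Among the core histones, H2A and H2B pair as dimers, and H3 and H4 form the central tetramer. Hist1h2bc was at 3.04 and 2.71 CPM in wild-type and 8.42 and 7.53 in Dnmt-TKO vehicle libraries, a log2 change of 1.48 ± 0.15 (SE, adjusted p = 2.7e-09, edgeR). The H4 gene Hist1h4i was at 1.04 and 1.28 against 4.54 and 4.79 CPM, a log2 change of 2.00 ± 0.21 (SE, adjusted p = 6.8e-09, edgeR). For both genes the Dnmt-TKO libraries lay well apart from the wild-type ones. Hist3h2ba, the H2B gene of the Hist3 cluster, was at 0.143 and 0 CPM against 0.909 and 1.24, a log2 change of 3.93 ± 0.61 (SE, adjusted p = 3.5e-06, edgeR). Its wild-type libraries had 4 and 0 counts, and the log2 change ran from 2.85 to 8.07 over the alternative runs. Hist1h2ae was at 2.18 and 2.05 against 3.33 and 4.29 CPM, a log2 change of 0.85 ± 0.19 (SE, adjusted p = 0.00027, edgeR). Hist1h3e, an H3 gene, rose less, by 0.68 ± 0.26 (SE, adjusted p = 0.023, edgeR), from 1.00 and 1.03 CPM to 1.55 and 1.71. Of the other higher members of their types, Hist1h2ai was at 0.964 and 0.498 CPM against 0.740 and 0.937, Hist1h2bk at 0.893 and 0.840 against 0.842 and 1.34, and Hist1h4a at 0.429 and 0.404 against 0.370 and 0.770. These 3 overlapped between the genotypes and did not pass.

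The other members that rose were picked here after their values were seen. Hist1h1b and Hist1h1e rose by 1.07 and 0.86 on the log2 scale, Hist1h2be by 2.06, Hist3h2a by 1.85, Hist2h3c2 by 3.67, Hist1h4h by 1.51 and Hist1h4k by 1.97. Hist1h3b was at 0 in both wild-type vehicle libraries and had 3 and 5 counts in Dnmt-TKO, at least 2.69-fold higher against a floor of 3 counts over the group. Reads of Hist1h1e and Hist1h2be, which overlap each other, and of Hist3h2a, which overlaps Trim17, cannot be told apart by strand here. DESeq2 did not call Hist1h1e, Hist1h1t and Hist1h3e. Leaving out single vehicle libraries ended 6 of the 15 calls. Without wild-type replicate 1, Hist1h1t, Hist1h3e and Hist1h4h no longer passed, and without wild-type replicate 2, Hist1h1e, Hist1h3b, Hist1h3e and Hist1h4k. Without Dnmt-TKO replicate 1, Hist1h1e and Hist1h4h were lost, and without Dnmt-TKO replicate 2, Hist1h1e, Hist1h3b, Hist1h3e and Hist1h4k, with adjusted p up to 0.256 (Hist1h1e, edgeR).

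**Figure D2:**
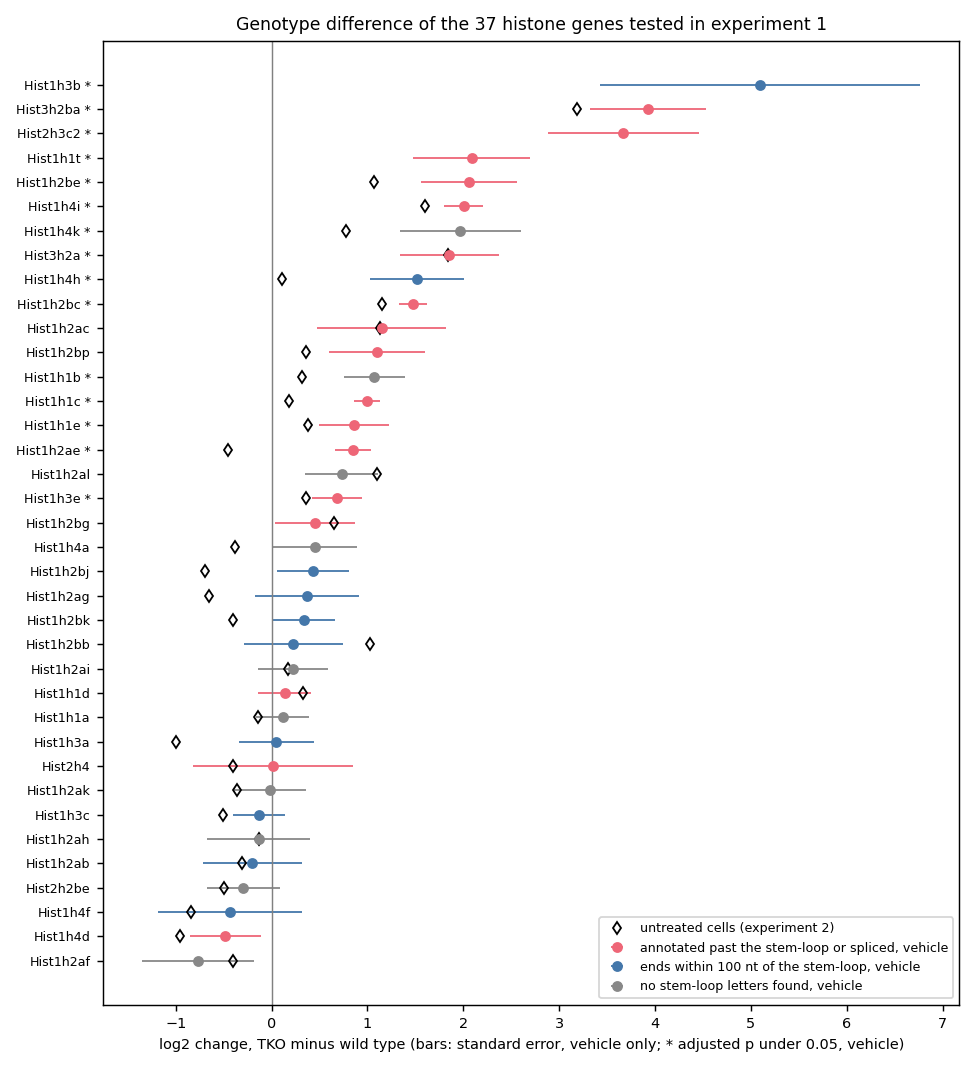
Log2 change, Dnmt-TKO minus wild type (x axis), of the 37 histone genes tested in experiment 1 (rows), with filled points and standard errors for vehicle, coloured by annotated transcript, and open diamonds for untreated cells where tested. Extended genes (red) take 11 of the 15 asterisked rows; the point of Hist1h3b, at 0 in wild-type cells, depends on the prior count.

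In untreated cells, fewer members passed the test for a difference between the genotypes. The common coefficient of variation between libraries was 3.73% in experiment 1 and 10.5% in experiment 2. An equal change thus passes less readily in experiment 2, and the part of this in the number of calls was not tested. The summed level was 32.7 and 42.8 CPM in wild-type and 46.4 and 48.9 CPM in Dnmt-TKO libraries, 1.26 times higher by group means. Of the 36 members tested, 3 rose and 1 fell, while 25.9% of all 16303 genes rose and 24.3% fell. In 11 members both Dnmt-TKO libraries were above both wild-type libraries and in 7 below, beside 38.5% and 37.5% of all genes. These shares of members, 8.33% and 2.78%, were below the background. The median log2 change was 0.09, and the median over all genes was within 0.01 of 0. The extended members had a median of 0.38, those ending near the stem-loop -0.46 and those without stem-loop letters -0.15.

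The 3 that rose were Hist1h2bc, Hist1h4i and Hist3h2ba, all extended. Hist1h2bc was at 3.42 and 3.88 CPM in wild-type and 7.42 and 8.78 in Dnmt-TKO cells, a log2 change of 1.15 ± 0.20 (SE, adjusted p = 0.00052, edgeR). Hist1h4i was at 1.41 and 2.25 against 5.12 and 5.88 CPM, a log2 change of 1.60 ± 0.25 (SE, adjusted p = 0.00022, edgeR). Hist3h2ba was at 0.318 and 0.132 against 1.85 and 2.49 CPM, a log2 change of 3.19 ± 0.44 (SE, adjusted p = 0.0001, edgeR). In each of the 3 both Dnmt-TKO libraries stood above both wild-type ones in both experiments. Hist3h2ba had 9 and 3 counts in the wild-type libraries of experiment 2, 65 and 77 in Dnmt-TKO and 17 and 27 in Tet1-KO Dnmt-TKO. In both experiments Hist3h2ba passed the filter only through the knockout groups where it was high, which favours a rise. The H4 gene Hist1h4d fell from 1.17 and 1.54 to 0.768 and 0.613 CPM, by 0.95 ± 0.36 on the log2 scale (SE, adjusted p = 0.045, edgeR). That call was lost without either wild-type library or either Dnmt-TKO library, with adjusted p up to 0.209. Without wild-type replicate 2 the count of members that rose was 5, with Hist1h1c and Hist3h2a added. Without wild-type replicate 1, Hist1h3a passed as lower, at -1.50 on the log2 scale.

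Of the 12 members that rose under vehicle and were tested in untreated cells, 11 had a log2 change above 0 there and 3 passed the test. The matching shares among all genes that rose under vehicle were not counted, so these numbers cannot be read as particular to the members. Hist1h1c, for example, was at 5.75 and 9.57 CPM in wild-type and 8.16 and 9.10 in Dnmt-TKO cells. The groups overlapped, and the log2 change of Hist1h1c was 0.18. Hist1h2ae lay the other way, at 3.42 and 3.84 CPM in wild-type against 2.36 and 2.94 in Dnmt-TKO cells, a log2 change of -0.46 that did not pass the test. The difference between the experiments was not tested, since they were scaled and fitted separately.

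**Figure D3:**
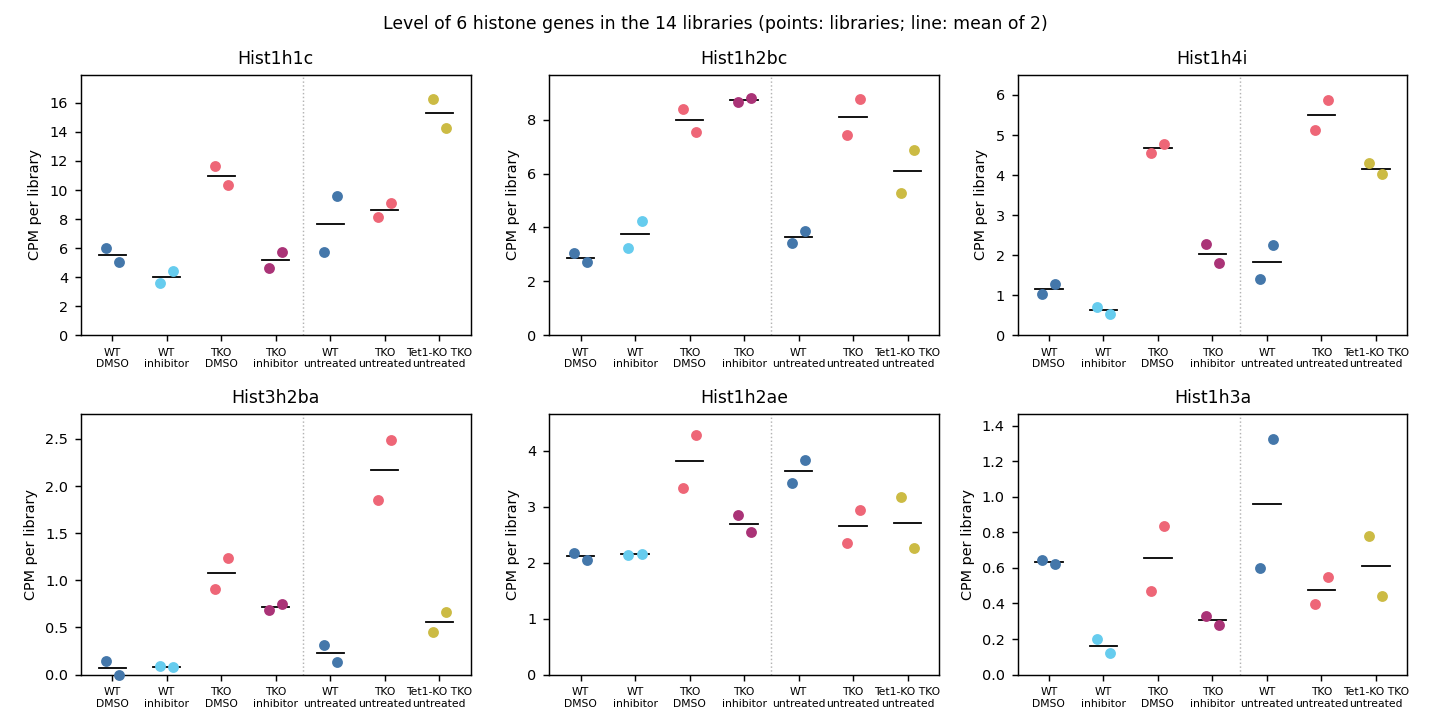
CPM (y axes, from 0) of 6 histone genes in the 14 libraries of the 7 groups (x axes), with 1 point per library and a line at the mean of 2; the dotted line parts the separately scaled experiments. Hist1h2bc, Hist1h4i and Hist3h2ba stand higher in Dnmt-TKO than in wild-type cells on both sides of it, Hist1h2ae only under vehicle.

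With the PRC1 inhibitor, single members of wild-type cells rose or fell, and the summed levels overlapped. Wild-type cells had 30.4 and 29.1 CPM under vehicle and 27.1 and 31.6 with the inhibitor. Of the 37 members, 5 rose and 3 fell, while 19% of all genes rose and 18.7% fell. The groups did not overlap in 11 members that were higher and 8 that were lower, beside 34.3% and 31.7% of all genes. The median log2 change was -0.13. Neither share of members, 13.5% and 8.11%, exceeded the background.

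Of the members that passed as lower in wild-type cells, the H3 gene Hist1h3a had the largest change. It was at 0.643 and 0.622 CPM under vehicle and 0.200 and 0.122 with the inhibitor, a log2 change of -1.89 ± 0.52 (SE, adjusted p = 0.0054, edgeR). Hist1h4i fell from 1.04 and 1.28 to 0.713 and 0.530 CPM, by 0.87 ± 0.30 on the log2 scale (SE, adjusted p = 0.026, edgeR). Hist1h1c fell from 6.001 and 5.068 to 3.57 and 4.44 CPM, by 0.48 ± 0.15 (SE, adjusted p = 0.016, edgeR). All 3 genes had both inhibitor libraries below both vehicle libraries.

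Among the members that rose, Hist1h2al went from 0.5001 and 0.3731 to 1.31 and 1.31 CPM, a log2 change of 1.59 ± 0.34 (SE, adjusted p = 0.0007, edgeR). Its annotation is a processed H2A pseudogene, and 67.6% of its 50-base words occur in other genes, so these reads may come from other H2A genes. Hist1h1d rose by 0.65 ± 0.26 (SE, adjusted p = 0.047, edgeR), from 1.22 and 1.03 to 1.83 and 1.67 CPM. Also risen, and picked after their values were seen, were Hist1h1b by 0.84 and the H4 gene Hist2h4 by 2.37 on the log2 scale. Hist1h3b went from 0 in both vehicle libraries to 12 and 17 counts, at least 9.76-fold higher against a floor of 3 counts over the group. In experiment 1 Hist2h4 and Hist1h3b reached 10 counts only in inhibitor libraries. They thus passed the filter through the treatment in which they were high, which favours a rise.

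Several of these calls rested on single libraries. Without either vehicle library or either inhibitor library, Hist1h1b and Hist1h1d no longer passed, with adjusted p up to 0.2 and 0.206. Without inhibitor replicate 2 the calls of Hist1h3a, Hist1h4i and Hist2h4 were lost (adjusted p up to 0.0553, 0.165 and 0.119), and so was that of Hist1h4i without vehicle replicate 2. Hist1h1c was lost without vehicle replicate 1 or inhibitor replicate 1 (adjusted p up to 0.25). With 1 library left out, 2 to 4 members rose and 2 fell. DESeq2 did not call Hist1h1b, Hist1h1d and Hist1h4i.

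In Dnmt-TKO cells the inhibitor lowered the summed level, from 53.8 and 52.2 to 43.9 and 42.9 CPM, or 1.22 times. H1 fell from 17.2 and 15.7 to 9.72 and 10.8 summed CPM, whereas H2B was at 14.4 and 14.2 against 14.96 and 14.04, with overlap. Gene by gene, 2 members rose and 5 fell of the 37 tested, beside 19.9% and 19.6% of all genes. The groups did not overlap in 14 members that were higher and 13 that were lower, beside 35.3% and 35.7% of all genes. The median log2 change was 0.13. The share that fell, 13.5%, and the share that rose, 5.41%, were under the background.

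Hist1h1c carried most of the fall in H1. It was at 11.65 and 10.35 CPM under vehicle and 4.63 and 5.72 with the inhibitor, a log2 change of -1.09 ± 0.13 (SE, adjusted p = 4.0e-07, edgeR). Hist1h4i fell from 4.54 and 4.79 to 2.27 and 1.80 CPM, by 1.19 ± 0.18 (SE, adjusted p = 1.4e-05, edgeR). In both genes the inhibitor libraries were well below the vehicle libraries. Hist1h1t fell from 0.438 and 0.435 to 0.137 and 0.0932 CPM, by 1.87 ± 0.57 (SE, adjusted p = 0.011, edgeR). That gene passed the filter only through its counts in the vehicle group. Hist1h2ae fell from 3.33 and 4.29 to 2.85 and 2.55 CPM, by 0.49 ± 0.17 (SE, adjusted p = 0.026, edgeR). Hist1h3c passed at a log2 change of -0.89 ± 0.31 (SE, adjusted p = 0.023, edgeR), but its vehicle libraries, at 2.86 and 1.24 CPM, overlapped those with the inhibitor, at 1.29 and 0.901.

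The members that rose in Dnmt-TKO cells, named after their values were seen, were Hist1h2af, from 0.168 and 0.201 to 0.767 and 0.870 CPM, and Hist1h3b, from 0.101 and 0.167 to 0.384 and 0.435 CPM. Of the 7 calls, those of Hist1h1c, Hist1h4i and Hist1h2af passed in every alternative run. Without vehicle replicate 1 the calls of Hist1h1t, Hist1h3b and Hist1h3c were lost, and without vehicle replicate 2 those of Hist1h1t, Hist1h2ae and Hist1h3b. Without inhibitor replicate 1 the call of Hist1h3b was lost, and without inhibitor replicate 2 those of Hist1h1t, Hist1h2ae, Hist1h3b and Hist1h3c. Adjusted p ran up to 0.742 (Hist1h3c). DESeq2 did not call Hist1h1t, Hist1h2ae, Hist1h3b and Hist1h3c.

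The inhibitor's effect was compared between the genotypes as an interaction term. By edgeR, 0 of 37 members passed in either direction, beside 1.77% and 2.12% of all genes, 4 had an unadjusted p under 0.05, and DESeq2 called 0. For Hist1h1c the inhibitor's log2 change was lower in Dnmt-TKO cells by 0.61 ± 0.20 (SE, adjusted p = 0.091, edgeR), a difference that was called without wild-type vehicle replicate 1, at -0.74. Hist1h4i had an inhibitor log2 change of -0.87 in wild-type and -1.19 in Dnmt-TKO cells. The comparisons of genotype and of inhibitor share their vehicle libraries, so a chance high value in one of these moves both.

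With loss of TET1 on top of the methyltransferases, 2 members passed the test. The summed level was 46.4 and 48.9 CPM in Dnmt-TKO and 47.5 and 46.0 CPM in Tet1-KO Dnmt-TKO cells, with overlap. Of 36 members tested, 1 rose and 1 fell, beside 11.6% and 10.4% of all genes. The groups did not overlap in 3 members that were higher and 14 that were lower, beside 33.2% and 32.4% of all genes. Hist1h1c rose from 8.16 and 9.10 to 16.3 and 14.3 CPM, by 0.83 ± 0.20 on the log2 scale (SE, adjusted p = 0.013, edgeR). Hist3h2ba fell from 1.85 and 2.49 to 0.456 and 0.663 CPM, by 1.94 ± 0.36 (SE, adjusted p = 0.003, edgeR). In both genes the groups did not overlap. With the replicate number as a block Hist2h2be was also called lower, at -1.36 on the log2 scale (adjusted p = 0.0397, edgeR). The call of Hist1h1c was lost without Dnmt-TKO replicate 1 or Tet1-KO Dnmt-TKO replicate 1 (adjusted p up to 0.0818).

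Against wild-type cells, the Tet1-KO Dnmt-TKO cells had 3 members higher and 2 lower of 36, beside 26.3% and 24.4% of all genes. The groups did not overlap in 8 members that were higher and 9 that were lower, beside 37.2% and 36.3% of all genes. Hist1h4i was at 4.30 and 4.03 CPM against 1.41 and 2.25, a log2 change of 1.20 ± 0.25 (SE, adjusted p = 0.0016, edgeR). Hist1h1c was higher by 1.01 ± 0.21 (SE, adjusted p = 0.0015, edgeR) and Hist1h2bc, at 5.29 and 6.87 against 3.42 and 3.88 CPM, by 0.74 ± 0.20 (SE, adjusted p = 0.0088, edgeR). Hist2h2be, an H2B gene with no stem-loop letters in its transcript, was lower, at 0.295 and 0.246 CPM against 0.706 and 1.28, a log2 change of -1.84 ± 0.45 (SE, adjusted p = 0.0047, edgeR). Hist1h2ak, named after its value was seen, was lower too, with a log2 change of -1.39. These comparisons share the wild-type and Dnmt-TKO libraries with the others of experiment 2. Without wild-type replicate 1, Hist1h2bc and Hist1h2ak were lost, without wild-type replicate 2, Hist2h2be, without Tet1-KO Dnmt-TKO replicate 1, Hist1h2ak, and without its replicate 2, Hist1h2bc and Hist1h2ak, with adjusted p up to 0.103.

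The start regions of 3 members that moved are shown, since histone promoters carry short shared elements that bind general and cell-cycle factors. Of the 57 members, 50 matched an entry in the RefSeq promoter table (GRCm38.p6), with 51 promoters in all. In the 250 bases before each start, the TATA element (TATAAA), the element known as the CCAAT box, and the octamer (ATTTGCAT) were searched on both strands and are in capitals. The letters were searched separately, so matches may overlap.
Hist1h1c (H1f2), chr13:23738557-23738806, plus strand: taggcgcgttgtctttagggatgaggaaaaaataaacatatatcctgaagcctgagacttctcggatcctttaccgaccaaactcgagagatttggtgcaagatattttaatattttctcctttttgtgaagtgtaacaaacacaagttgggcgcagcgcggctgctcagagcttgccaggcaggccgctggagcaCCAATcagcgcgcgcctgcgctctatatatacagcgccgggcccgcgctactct
Hist1h4i (H4c9), chr13:22041363-22041612, minus strand: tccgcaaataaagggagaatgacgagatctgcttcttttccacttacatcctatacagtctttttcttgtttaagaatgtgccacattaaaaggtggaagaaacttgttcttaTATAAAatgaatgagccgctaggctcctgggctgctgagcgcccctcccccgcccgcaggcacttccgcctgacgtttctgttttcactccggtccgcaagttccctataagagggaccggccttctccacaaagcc
Hist3h2ba (H2bu2), chr11:58948661-58948910, plus strand: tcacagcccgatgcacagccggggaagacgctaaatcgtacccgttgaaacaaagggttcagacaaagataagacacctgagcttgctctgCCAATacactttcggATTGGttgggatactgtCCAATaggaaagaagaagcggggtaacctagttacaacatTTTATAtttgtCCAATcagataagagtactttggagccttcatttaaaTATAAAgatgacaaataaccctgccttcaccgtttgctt
CCAAT was found in 80.4% of the 51 member promoters and 33.8% of all 32851, TATAAA in 49.0% and 12.4%, and ATTTGCAT in 23.5% and 1.60%. By type, CCAAT was in all 6 H1, 16 H2A and 12 H2B promoters, in 4 of 6 H3 and in 3 of 11 H4 promoters. ATTTGCAT was found in 7 H2A and 5 H2B promoters and in no other type, and since H2A and H2B genes are often divergent neighbours, 1 site can be counted from both. The 15 promoters of members that rose under vehicle in Dnmt-TKO cells came from 14 genes. Hist1h2be was counted more than once, and Hist1h2bc had no entry. Of these 15 promoters, 11 held CCAAT, as did 17 of the 18 found for the 22 members tested without a call. The median number of CG dinucleotides was 11 in the former, 6.5 in the latter and 6 over all promoters. These matches are descriptions of letters, and methylation was not measured here.

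The machinery of histone message was looked at through lists drawn up for it. Their counts stand beside the shares of all genes that rose and fell, which were 34.8% and 34.2% for genotype under vehicle, 25.9% and 24.3% for genotype in untreated cells, 19% and 18.7% for the inhibitor in wild-type cells, 19.9% and 19.6% for it in Dnmt-TKO cells, and 11.6% and 10.4% for loss of TET1. For processing factors and the regulators of the clusters, 2 of 18 genes rose and 15 fell in Dnmt-TKO vehicle cells, with a median log2 change of -0.28. Slbp, whose product binds the stem-loop, was at 163 and 151 CPM in wild-type and 106 and 102 in Dnmt-TKO vehicle libraries, and fell by 0.59 ± 0.05 (SE, adjusted p = 2.3e-10, edgeR). In untreated cells Slbp was at 143 and 142 against 114 and 106 CPM, a log2 change of -0.37 ± 0.09 (SE, adjusted p = 0.0055, edgeR), lost without Dnmt-TKO replicate 2. With the inhibitor Slbp rose in both genotypes, by 0.23 in each on the log2 scale, a call lost in Dnmt-TKO cells without vehicle replicate 2. Npat was at 71.2 and 71.8 against 65.4 and 64.9 CPM under vehicle, a log2 change of -0.13 that turned to 0.02 when scaled by library size alone.

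Genes of S phase and DNA replication, to which histone synthesis is tied, had 4 of 41 higher and 33 lower in Dnmt-TKO vehicle cells, with a median log2 change of -0.39. The replicative helicase subunit gene Mcm6 fell by 1.02 and the polymerase alpha subunit gene Pola2 by 1.15 on the log2 scale, while Cdk2 rose by 0.36. In untreated cells 2 rose and 14 fell. With the inhibitor 17 rose and 14 fell in wild-type cells, and 13 rose and 13 fell in Dnmt-TKO cells. The replication factor gene Mcm10 rose by 0.77 and 0.99 on the log2 scale. With the libraries scaled by size alone, which lifts the median gene by 0.16 in the vehicle comparison of genotypes, 6 of the 41 rose and 23 fell. The part of these genes in the histone levels was not tested.

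Of the 10 histone variants outside the clusters, whose messages are polyadenylated in most cases, 2 rose and 8 fell in Dnmt-TKO vehicle cells. H2afj rose by 1.46 and H2afx by 0.52, while H2afz fell by 0.52 and H2afy by 0.78 on the log2 scale. H2afx, whose message can end in a stem-loop or a poly(A) tail, fell with the inhibitor by 1.01 in wild-type and 0.88 in Dnmt-TKO cells. Histone chaperones and importers had 2 of 20 higher and 16 lower, and decay factors 5 of 13 higher and 4 lower, in Dnmt-TKO vehicle cells. Upf1, the helicase that takes part in histone message decay, rose by 0.52 there, and by 0.34 and 0.44 with the inhibitor in wild-type and Dnmt-TKO cells.

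Other RNAs without a canonical poly(A) tail were counted beside the histone genes. The snoRNA features summed to 103 and 90.5 CPM in wild-type and 110 and 111 CPM in Dnmt-TKO vehicle libraries, and to 35.1, 42.9, 51.2 and 60.4 CPM in the inhibitor libraries of the 2 genotypes. The snoRNA sum with the inhibitor was 0.404 of the vehicle mean in wild-type and 0.505 in Dnmt-TKO cells, and the histone sum 0.987 and 0.820. Of the 82 snoRNA features tested, 0 rose and 57 fell with the inhibitor in wild-type cells and 0 rose and 49 fell in Dnmt-TKO cells, while 15 rose and 3 fell by genotype. The snoRNA features include many within introns, so their reads may belong to host transcripts. In experiment 2 the wild-type library with the higher histone sum, replicate 2, also had the higher snoRNA sum, 184 against 122 CPM.

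Of the listed RNAs without a canonical poly(A) tail, 5 were tested: Rn7sk, Rpph1, Terc, Malat1 and Neat1. The polymerase III transcript Rn7sk was at 0 and 0.0933 CPM in wild-type vehicle and 1.83 and 1.67 in inhibitor libraries, and at 0.168 and 0.167 against 2.16 and 2.58 in Dnmt-TKO cells. The RNase P RNA gene Rpph1 rose by 2.20 on the log2 scale in Dnmt-TKO vehicle cells. In all, 2 rose and 0 fell by genotype under vehicle, by edgeR, and the other riser was Neat1, by 0.44 on the log2 scale. With the inhibitor 3 rose and 0 fell in wild-type cells, and 3 rose and 2 fell in Dnmt-TKO cells. Those that fell were Rpph1, from 6.36 and 7.53 to 4.44 and 4.32 CPM, and the telomerase RNA gene Terc, from 0.438 and 0.469 to 0.0822 and 0.217 CPM. The scaRNA features summed to 1.82 and 2.08 CPM in wild-type and 3.27 and 3.38 in Dnmt-TKO vehicle libraries, and the snRNA features to 5.54 and 4.76 against 5.69 and 7.73. The part of carried-over untailed RNA in the histone levels was not tested.

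**Figure D4:**
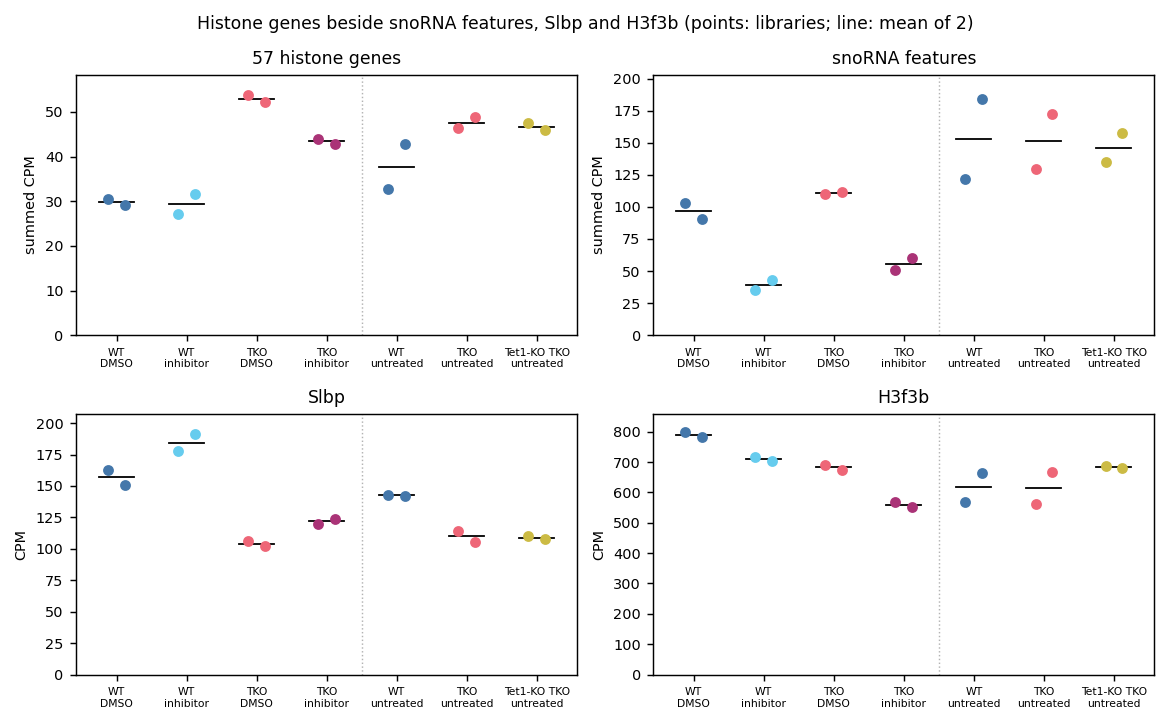
Summed CPM of the 57 histone genes and of the snoRNA features, and CPM of Slbp and H3f3b (y axes, from 0), in the 7 groups (x axes), with 1 point per library and a line at the mean of 2; the dotted line parts the separately scaled experiments. The snoRNA sum drops with the inhibitor in both genotypes, to 35.1 to 60.4 CPM, and Slbp is lower in every Dnmt-TKO group than in the matching wild-type group.

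Markers of other cell types moved with genotype. Of 10 trophoblast markers, 9 rose and 0 fell in Dnmt-TKO vehicle cells, and their summed level was 86.9 to 96.8 CPM in wild-type and 896 to 945 in Dnmt-TKO vehicle libraries, 115 to 121 and 1256 to 1258 with the inhibitor, and 69.3 to 75.3, 164 to 178 and 547 to 759 in untreated wild-type, Dnmt-TKO and Tet1-KO Dnmt-TKO libraries. The trophoblast gene Elf5 was at 0 in both wild-type vehicle libraries. Of 7 fibroblast feeder markers tested, 4 rose and 2 fell by genotype under vehicle, from a summed 13.7 to 14.6 CPM in wild-type to 13.5 to 13.7 in Dnmt-TKO libraries. Acta2 was at 0 and 0.0622 CPM in wild-type and 3.16 and 3.25 in Dnmt-TKO vehicle libraries. Postn was at 0 in both wild-type vehicle libraries and at 0.976 and 1.205 CPM in Dnmt-TKO. Col1a2 and Col3a1 also rose, while Thy1 and Pdgfrb fell by 1.70 and 0.71 on the log2 scale. The collagen gene Col1a1, at 0.761 to 2.36 CPM in all libraries, was the marker without a call. Of 9 endoderm markers, 1 rose and 8 fell, at 1349 to 1359 against 1131 to 1185 CPM. Of 8 stem cell markers, 1 rose and 7 fell, at 5679 to 5816 against 4328 CPM. With loss of TET1, 9 of 10 trophoblast and 7 of 8 endoderm markers rose. The part of other cell types in the histone levels was not tested.

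The other genes of the chromosomes that hold the clusters are given as a description. The 583 other genes of chromosome 13 tested in experiment 1 had a median log2 change of 0.09 between the genotypes under vehicle, beside -0.01 on the other autosomes. The 721 of chromosome 3 had a median of 0.05 and the 1371 of chromosome 11 one of -0.05.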

How the data were processed

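Per the labels' protocols, RNA was taken through poly(A) selection and sequenced on a HiSeq instrument. The authors deposited 1 table of counts for each experiment, as whole reads per gene that had not been normalized. Per the submitters' processing notes, the tools were HTSeq 0.5.3p9, TopHat2 2.0.2 and Bowtie 0.12.8, with build mm9. The strand setting was not given in the sources used here, nor was the annotation release.

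Symbols, chromosomes, lengths and transcripts came by Ensembl ID from GENCODE vM21, a later build, so none of its coordinates are given, and 32919 of 37991 IDs matched. Promoter letters and coordinates are RefSeq's (GRCm38.p6). In R 4.3.3, edgeR 4.0.16 filtered each table on low counts (minimum 10, total 15), scaled it by TMM and fitted 1 quasi-likelihood model per experiment (16711 and 16303 genes, 4 and 3 residual degrees of freedom), with Benjamini-Hochberg adjustment and a threshold of 0.05. DESeq2 1.42.0, other scaling, no filter, a replicate block, protein-coding genes alone and leaving out each library were alternatives. The scripts were tested on simulated data. A share of 50-base words was counted in transcripts of genes that do not overlap the member.

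The members, lists and comparisons were chosen with earlier results of these data known. Named were the 3 highest members of each type, the testis forms, up to 4 called members per comparison and direction with at least 1 CPM and no overlap, the highest per kb of each cluster, and from each list up to 2 called genes per direction, with Slbp, Npat and H3f3b. The lists were histone variants, processing factors and cluster regulators, decay factors, chaperones, S-phase genes and other RNAs without a canonical poly(A) tail. Marker lists covered stem cells, fibroblast feeders, endoderm and trophoblast. With 2 libraries per group, precision rests on the 14 libraries and, for single members, on counts.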

Additional observations from a re-analysis of the deposited data

Results flagged for a closer look

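The difference between genotypes in Hist1h2ae, an H2A gene, had opposite signs in the experiments. Under vehicle both Dnmt-TKO libraries were above both wild-type libraries, with a log2 change of 0.85. In untreated cells both were below, with a log2 change of -0.46 that did not pass the test. Of the 34 members tested for genotype in both experiments, it was the only 1 without overlap in opposite directions. Of all genes, 37.5% had both untreated Dnmt-TKO libraries below both wild-type ones. The difference between the experiments was not tested. Hist1h2ae shares 43.2% of its 50-base words with other genes.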

How the results depend on the processing

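Of 130 results for named members, 41 passed the test, of which 20 passed in every alternative, 21 were lost in at least 1, and none reversed in those run. Of 199 results for listed genes, 47 were lost in at least 1 alternative and 1 reversed, the log2 change of Npat by genotype under vehicle, which was 0.0166 with library size alone. DESeq2 gave 3 higher for the inhibitor in wild-type cells, 1 higher and 2 lower for it in Dnmt-TKO cells, 0 lower for genotype in untreated cells and 1 lower for Tet1-KO Dnmt-TKO against wild type. Library size alone gave 3 higher for the inhibitor in wild-type cells, 0 lower for untreated genotype and 2 lower for loss of TET1. Without a filter, 1 member was higher for the inhibitor in Dnmt-TKO cells, 2 lower for loss of TET1 and 5 higher for Tet1-KO Dnmt-TKO against wild type.

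Leaving out 1 library gave 11 to 13 higher and 0 to 2 lower for genotype under vehicle, 2 to 4 higher and 2 to 2 lower for the inhibitor in wild-type cells, and 1 to 2 higher and 2 to 6 lower in Dnmt-TKO cells. It gave 0 higher and 0 to 1 lower for the interaction, 3 to 5 higher and 0 to 1 lower for untreated genotype, 0 to 1 higher and 1 lower for loss of TET1, and 2 to 3 higher and 1 to 2 lower for Tet1-KO Dnmt-TKO against wild type. A group left with 1 library is assumed to vary like the others.

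With the replicate block, which takes the replicate number as pairing, 3 members were higher for the inhibitor in wild-type cells and 2 lower for loss of TET1, and genotype under vehicle kept counts of 15 higher and 0 lower. Same-numbered libraries correlated in their deviations at -0.0345 to 0.0384 in experiment 1 and 0.111 to 0.236 in experiment 2, and no label says what a number marks. All 3 values of experiment 2 are above 0.1, from only 2 numbers, and the block there gave 4 higher and 1 lower for untreated genotype. Depth limits most members: the median member had 149 counts over all 14 libraries.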
